A study of Arabidopsis thaliana with 6 samples.

Results

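AT1G61360, AT1G61370 and SD1-29 (AT1G61380) are 3 adjacent genes of Arabidopsis thaliana that encode S-locus lectin receptor kinases. They were chosen because their signals stood above water after Tween 20 in each of 3 experiments, so the folds of these genes are a description and carry no test. Each gene had 1 probe set that names no other gene in the platform annotation, which makes 3 of the 13513 probe sets with 1 gene and 3 of the 13350 genes so named. All 3 probe sets passed the filter on dim signals described below.

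S-locus lectin receptor kinases, also called S-domain receptor kinases, sit in the plasma membrane with a lectin-like S-domain outside the cell, a single membrane span and a serine/threonine kinase inside. The family takes its name from the Brassica receptor of self-incompatibility, by which a stigma recognises pollen of its own type. In Arabidopsis leaves, members of the family are known from immunity. SD1-29, also called LORE, senses bacterial 3-hydroxy fatty acids of medium chain length and starts pattern-triggered immunity. For AT1G61360 and AT1G61370 no role is given here.

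Col-0 plants aged 28 days, raised in sterile jars on sucrose-containing MS medium in short days, had their leaves sprayed with distilled water or with 0.2% Tween 20 (1.6 mM), a non-ionic detergent. Leaves were taken 1 h after spraying in experiments IA and IB, which repeat each other with separate plants, and 2.5 h after it in experiment II, with 33 plants for every experiment. Each experiment gave 1 water and 1 Tween array, and each array carried RNA pooled from 3 extracts, so the spread between extracts is not seen and 1 array stands for each condition of an experiment. Groups follow the titles and the design text, because the treatment text of the labels names water for the Tween arrays too and 2.5 h for the arrays of IA. The arrays hold whole leaf material, in which a change in the amount of RNA per cell and a change in the share of a cell type cannot be told apart.

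The values are probe set signals in MAS5 units, with array medians from 36.5 to 40.5 units. A signal was called dim below the 40th percentile of its array, which lay between 20.6 and 23.9 units, and a probe set entered the tests if it was not dim on at least 2 of the 6 arrays, as 14345 were. The leaf label was checked by RCA, the Rubisco activase of chloroplasts, the 1 leaf marker of 6 with a probe set named here. Its signals lay between 3601.3 and 4176.4 units, at or above percentile 99.9 of every array (Tween over water -0.02 ± 0.06 on the log2 scale, SE, limma adjusted p = 0.905). Of 10 root and pollen markers 4 had a probe set, of which 2 were dim on every array and none passed the test. PYK10, a beta-glucosidase known from roots and seedlings, lay between 745.2 and 1126.8 units, at or above percentile 96.3 of every array. Its log2 folds were -0.05, -0.60 and 0.14 in IA, IB and II (-0.17 ± 0.14, limma adjusted p = 0.62), and its part in the results was not tested. AT4G11290 lay between 19.0 and 57.0 units (-0.11 ± 0.15, limma adjusted p = 0.787).

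AT1G61360 had signals of 58.8, 44.4 and 61.4 units under water in IA, IB and II and of 168.2, 103.0 and 152.2 units under Tween 20. The lowest Tween signal, that of IB, was 1.68 times the highest water signal, that of II, so the groups did not overlap. Tween over water was 2.86-fold in IA, 2.32-fold in IB and 2.48-fold in II, a mean log2 fold of 1.35 ± 0.15 (SD, n = 3), which was the largest of the 3 genes.

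SD1-29 had signals of 80.6, 69.8 and 66.9 units under water and of 200.5, 140.2 and 138.9 units under Tween 20. Again all Tween signals lay above all water signals, and IA held the highest signal of either group. The gene stood 2.49-fold above water in IA, 2.01-fold in IB and 2.08-fold in II (mean log2 fold 1.12 ± 0.17, SD, n = 3). The 2-fold mark, the study's criterion, was met in IB by a small margin, and with quantile normalization the log2 fold there was 0.98, just under it. With 16 units added to every signal, the log2 fold of SD1-29 was under that mark in IB (0.86) and in II (0.90), and its mean was 0.98.

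AT1G61370 was the dimmest of the probe sets against its arrays and had the smallest folds. Its signals were 33.5, 23.9 and 31.5 units under water and 58.7, 41.8 and 54.3 units under Tween 20. The groups did not overlap, but the margin was narrow, since the lowest Tween signal was 1.25 times the highest water signal. Tween over water was 1.75-fold in IA, 1.75-fold in IB and 1.72-fold in II, so the gene did not reach 2-fold in any experiment. Its log2 folds of 0.81, 0.81 and 0.79 (mean 0.80 ± 0.01, SD, n = 3) lay within 0.02 of each other, against a median range of 0.40 over the tested probe sets. A range as small was found for 36 tested probe sets, or 0.251%, with AT1G61370 among them. The ranges of AT1G61360 and SD1-29, 0.30 and 0.31, were ordinary, as 34.9% and 35.8% of tested probe sets had ranges as small. The closeness for AT1G61370 was read from the folds by which the genes were chosen, so it is a description and was not tested. It depends on the scaling, since the log2 folds of AT1G61370 were 0.84, 0.77 and 0.80 after quantile normalization. With 16 units added to every signal its mean log2 fold was 0.56, as the added units weigh most on dim signals.

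**Figure D1:**
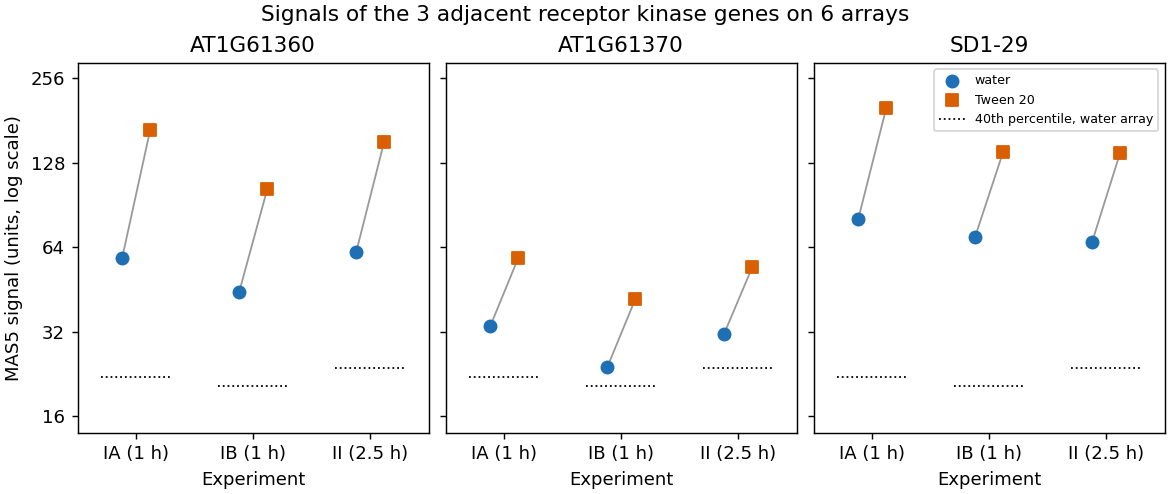
MAS5 signal in units on a log scale for AT1G61360, AT1G61370 and SD1-29 in experiments IA, IB and II. Circles are water arrays, squares are Tween 20 arrays, lines join the arrays of an experiment and dotted lines mark the 40th percentile of each water array. In every experiment and for each gene the square lies above the circle, and the water signal of AT1G61370 in IB, 23.9 units, lies nearest to a dotted line.

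Against the whole table the genes compare as follows, with the reminder that they were picked for these folds and nothing is read from their counts. A 2-fold higher signal with Tween 20, with the brighter signal of the pair not dim, was met by 4.15% of probe sets in IA, 1.84% in IB and 1.17% in II. AT1G61360 and SD1-29 met it in all 3 experiments, as did 0.218% of the 13310 probe sets bright in all of them (29 probe sets), and AT1G61370 met it in none. With 16 units added neither met it in all 3, as AT1G61360 was at 0.98 in IB and SD1-29 at 0.86 in IB and 0.90 in II, and 12 probe sets met it. All 3 Tween signals lay above all 3 water signals for 4.56% of the tested probe sets. By rank, the fold of AT1G61360 lay at percentile 98.3 of the tested probe sets in IA, 98.9 in IB and 99.6 in II. SD1-29 lay at percentiles 97.7, 98.2 and 98.9, and AT1G61370 at 94.5, 96.9 and 97.6. The folds of AT1G61360 and SD1-29 were thus largest in IA, but they ranked highest in II, where fewer probe sets passed 2-fold.

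The position of a signal within its own array restates the same signals without a fold, and so adds no separate evidence. AT1G61360 stood at percentile 59.0 under water and 81.9 under Tween 20 in IA, at 54.1 and 72.3 in IB and at 59.5 and 79.7 in II. SD1-29 stood at 66.0 and 84.6 in IA, at 63.7 and 78.6 in IB and at 61.6 and 78.0 in II. AT1G61370 stood at 47.1 and 59.3 in IA, at 42.5 and 52.6 in IB and at 45.2 and 56.4 in II. The probe set of AT1G61370 was therefore near the middle of the array in either condition, while those of AT1G61360 and SD1-29 were in the upper part under Tween 20.

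The order of the folds was the same in each experiment. AT1G61360 exceeded SD1-29 by 0.20, 0.21 and 0.26 on the log2 scale in IA, IB and II (mean 0.22 ± 0.03, SD, n = 3). SD1-29 exceeded AT1G61370 by 0.51, 0.20 and 0.27 (0.32 ± 0.16). AT1G61360 exceeded AT1G61370 by 0.71, 0.41 and 0.52 (0.55 ± 0.15). As differences of chosen folds these were not tested, and the order is that of the fold, not of the amount of transcript, because signals of different probe sets are not on a common scale.

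Between the times the folds lay close together, which is a description only, as the genes were chosen for standing above water at both times. The log2 fold at 2.5 h differed from the mean of the 1 h repetitions by -0.06 for AT1G61360, -0.02 for AT1G61370 and -0.11 for SD1-29. For AT1G61360 and SD1-29 the SD of the 1 h repetitions was larger, at 0.21 and 0.22. Experiment II is a single pair, so its own spread is unknown, and time cannot be told apart from the experiment.

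The repetitions at 1 h differed in level in both conditions. In IB the water signal of AT1G61360 was 0.755 times that in IA and its Tween signal 0.612 times. For AT1G61370 the ratios of IB to IA were 0.713 and 0.712, nearly equal under water and Tween 20. For SD1-29 they were 0.866 and 0.699. Each of the 3 genes was thus lower in IB than in IA in either condition, and each fold was taken within an experiment.

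The water arrays alone gave a comparison that the choice of the genes did not name, 2.5 h against 1 h. It is not free of that choice, because the same water signals entered the folds by which the genes were chosen. AT1G61360 was at 61.4 units at 2.5 h against 58.8 and 44.4 at 1 h, a log2 difference of 0.27 from the mean of the 1 h arrays. AT1G61370 differed by 0.15 and SD1-29 by -0.16. The 2.5 h signal of AT1G61370 lay between its 1 h signals, that of AT1G61360 lay above both and that of SD1-29 below both. Without the IB water array the difference of AT1G61370 was -0.09, the other way round. In limma 0.0% of the 14345 tested probe sets passed this comparison, 2.14% (307 probe sets) had an unadjusted p under 0.05, and none of the 3 genes was among these. The 2.5 h arm is 1 array, and its spread was assumed to be that of the 1 h arrays, which leaves 1 residual degree of freedom. The p-values do not show that the levels were alike.

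Along chromosome 1 the genes follow each other in the RefSeq annotation, with no gene between them, at the edge of a longer run of S-domain receptor kinase genes. The annotated spans of AT1G61360 and AT1G61370 overlap, and whether the probe sets of these related neighbours take up each other's transcripts was not tested. Of 40 genes annotated from AT1G61300 to AT1G61620, 18 had a probe set with 1 gene. AT1G61350, on the AT1G61360 side, was bright, with signals of 65.3, 59.0 and 97.9 units under water and 88.8, 55.8 and 77.8 units under Tween 20. These overlapped, and its estimate over the 3 experiments was 0.01 (limma adjusted p = 0.985).

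On the other side, the signals dropped to the dim range at the first gene with a probe set. AT1G61390, next to SD1-29, lay between 0.6 and 5.2 units, and AT1G61400 between 4.5 and 10.9 units. AT1G61410 (0.2 to 2.8 units), AT1G61450 (2.9 to 15.7 units) and AT1G61590 (0.8 to 1.5 units), which are not on the family list, were dim on every array. Of the further kinases, AT1G61420 lay between 6.5 and 15.2 units, AT1G61430 between 2.4 and 4.6, AT1G61440 between 0.7 and 3.8 and AT1G61460 between 0.5 and 5.2. AT1G61480 (3.9 to 7.4), AT1G61490 (0.3 to 11.0), AT1G61500 (1.1 to 12.1) and AT1G61550 (0.6 to 5.6) were dim throughout as well. AT1G61610 reached 20.9 units on the water array of IB and was dim on the other arrays.

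In all, 11 other S-domain kinases of this stretch had a probe set and none passed the filter, which 7739 of all 13513 probe sets with 1 gene passed. Of their 66 signals 1 was not dim. All 18 signals of AT1G61360, AT1G61370 and SD1-29 were not dim, but these genes were chosen by their signals, so nothing is read from the contrast. No fold is given for these 11 genes, since signals this dim do not carry one. The dim signals say that the probe sets did not stand out from the lower part of the array, not that the genes were silent.

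**Figure D2:**
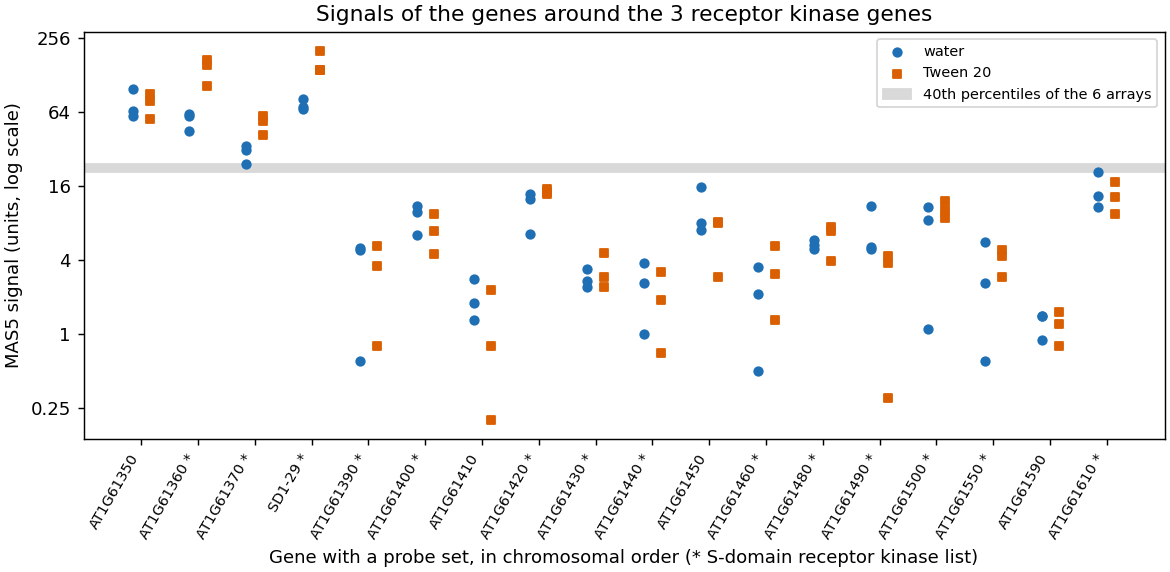
MAS5 signal in units on a log scale for the 18 genes from AT1G61300 to AT1G61620 with a probe set, in chromosomal order, with 3 water arrays (circles) and 3 Tween 20 arrays (squares) per gene. The grey band spans the 40th percentiles of the 6 arrays, 20.6 to 23.9 units; AT1G61350, AT1G61360 and SD1-29 lie above it, AT1G61370 lies above it except for its water signal in IB at the upper edge (23.9 units), and the other 14 genes lie at or below it.

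The list of the S-domain receptor kinase family held 39 genes, of which 36 were others than AT1G61360, AT1G61370 and SD1-29. Of these 36, 24 had a probe set and 10 were tested, all of them outside the stretch described above. None passed limma's test over the 3 experiments in either direction, in which 1.02% of all tested probe sets passed as higher and 0.105% as lower. At an unadjusted p under 0.05 there were 4 of the 10 higher and 1 lower, where 8.17% and 7.53% of all tested probe sets had such a p. The median of the mean log2 folds was 0.27 for the 10 genes and -0.04 for all tested probe sets. In each pair 7 of the 10 were above water, as were 15.2% of all tested probe sets, and 2 of the 10 were below it in each pair. All Tween signals lay above all water signals for 6 of the 10, against 4.56% of all tested probe sets. The 4, the 7 and the 6 each include AT4G11900, which passed the filter only through its Tween signals and so had to stand higher there.

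AT1G11330 came nearest to the threshold among these. Its signals were 59.5, 50.9 and 52.3 units under water and 121.5, 98.6 and 74.4 units under Tween 20, which do not overlap. The estimate was 0.83 ± 0.14 (SE, limma adjusted p = 0.0507). The adjusted p was 0.0484 with the filter at the 60th percentile and 0.0372 without IB. It was 0.216 without IA, 0.092 without II, 0.222 with no filter and 0.104 with no variance trend. With a term for time (II against IA and IB) in place of the experiment block, the adjusted p was 0.41. Over all tested probe sets, limma called 574 higher without IB, against 146 with every experiment.

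B120 had the largest estimate of the 10, 0.88 ± 0.28 (limma adjusted p = 0.204). Its signals were 22.5, 20.1 and 25.7 units under water and 72.9, 22.8 and 43.3 units under Tween 20, so the groups overlapped and the log2 folds of 1.70, 0.18 and 0.75 were far apart. Without IB the limma adjusted p was 0.0182, against 0.701 without IA and 0.422 without II. AT4G11900 (0.87 ± 0.30, limma adjusted p = 0.234) showed the opposite order, with log2 folds of 0.71, 1.74 and 0.15. It was dim on 4 of 6 arrays and was tested only because its Tween signals in IA and IB were not, at 33.8 and 57.8 units.

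The other named kinases of the family lay closer to 0. AT1G34300 was at 0.40, 0.28 and 0.71 (0.46 ± 0.14, limma adjusted p = 0.183), and its signals did not overlap, with a lowest Tween signal of 60.5 and a highest water signal of 53.4 units. AT5G35370 was at 0.31, 0.24 and 0.28 (0.28 ± 0.14, limma adjusted p = 0.388), small folds that lay close together. AT1G11410 lay below water, at -0.74, -0.14 and -0.63 (-0.50 ± 0.15, limma adjusted p = 0.191). Its limma adjusted p was 0.0374 without IB, 0.66 without IA and 0.484 without II. Of the 10, 3 had a mean below 0.

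**Figure D3:**
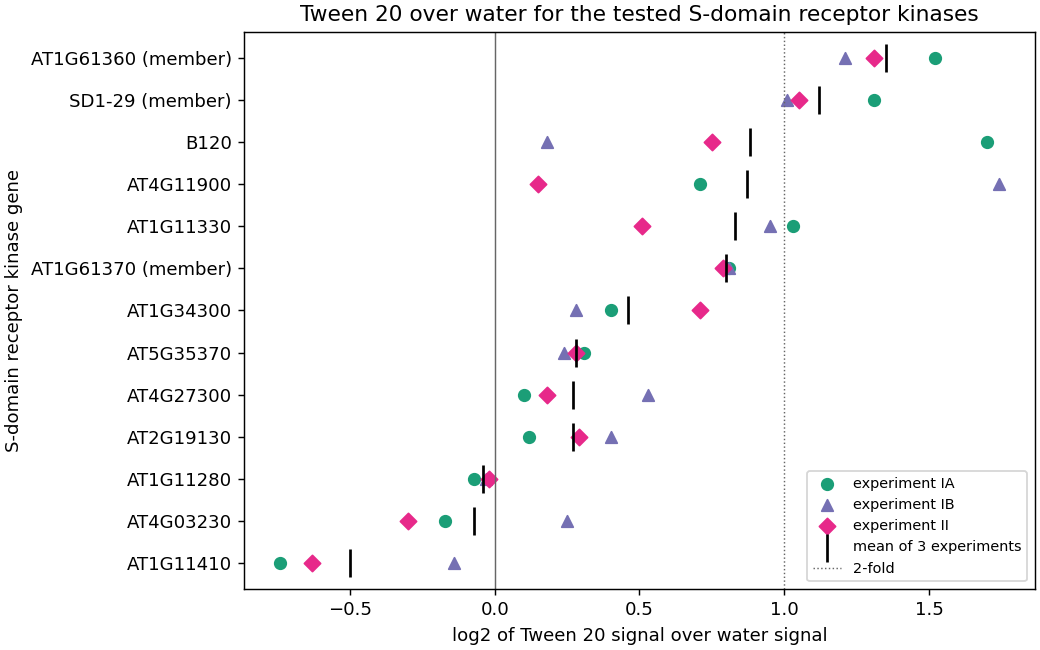
Log2 of the Tween 20 signal over the water signal in experiments IA (circles), IB (triangles) and II (diamonds) for the 13 S-domain receptor kinase genes that passed the filter, with black ticks at the mean of the 3 experiments and a dotted line at 2-fold. AT1G61360 and SD1-29 have all their points to the right of the dotted line, and AT1G61370 has its points on nearly the same spot near 0.80.

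Other genes of pattern-triggered immunity were looked up from further lists, most of whose entries had no probe set named here. Of 19 pattern recognition receptors and co-receptors 4 had one and 3 were tested, with 1 called higher and 2 higher at an unadjusted p under 0.05, where 1.02% and 8.17% of all tested probe sets were. The called gene was AT4G08850, a receptor-like kinase on that list, which rose from 522.3, 332.8 and 456.7 units under water to 1016.4, 848.4 and 706.3 units under Tween 20 (0.98 ± 0.14, limma adjusted p = 0.0344). Its signals did not overlap. The call was lost without IA (limma adjusted p = 0.131), without II (0.072), with no filter (0.179) and with no variance trend (0.096). It was also lost with a term for time in place of the experiment block (0.41). EFR, the receptor of bacterial elongation factor Tu, was at 0.85, 0.38 and 0.24 (0.49 ± 0.18, limma adjusted p = 0.256), and FER, a receptor kinase of growth and immunity, was at 0.11, -0.19 and 0.03 (-0.02 ± 0.11, limma adjusted p = 0.962).

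Downstream of such receptors, cytoplasmic kinases carry the signal to the oxidative burst and to MAP kinases. Of 22 such signalling genes 2 had a probe set and none passed the test, which 1.02% of all tested probe sets passed as higher. At an unadjusted p under 0.05 there was 1 higher, against 8.17% of all tested probe sets. It was BIK1, a cytoplasmic kinase that several immune receptors act through, with signals of 108.4, 197.5 and 107.4 units under water and 209.5, 192.3 and 190.6 units under Tween 20. It stood higher with Tween 20 in IA and II and not in IB, at log2 folds of 0.95, -0.04 and 0.83 (0.58 ± 0.20, limma adjusted p = 0.233). The limma adjusted p of BIK1 was 0.00771 without IB, 0.737 without IA and 0.549 without II. AT3G28690 was at 0.06, 0.15 and -0.15 (0.02 ± 0.12, limma adjusted p = 0.955).

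Of 19 genes that mark an immune response 2 had a probe set, and none passed the test (1.02% of all tested probe sets did as higher), with 1 higher at an unadjusted p under 0.05 (8.17%). That gene was WRKY53, which encodes a transcription factor known from leaf senescence and immunity, with an estimate of 0.76 ± 0.14 (limma adjusted p = 0.0673) and no overlap between 67.7 units, its highest water signal, and 92.1 units, its lowest Tween signal. STZ, a zinc finger repressor of stress responses, was at 2.56, -0.31 and 0.84 (1.03 ± 0.46, limma adjusted p = 0.337), with overlapping groups. Without IB the limma adjusted p was 0.046 for WRKY53 and 0.0116 for STZ. It was 0.103 and 0.883 without IA, and 0.255 and 0.545 without II. Over all tested probe sets, leaving out IB raised the higher calls from 146 to 574. None of 45 L-type lectin receptor kinases, a separate family with a legume-lectin domain, had a probe set named here.

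The genes whose profile was most like that of the 3 kinases were found among the 7736 other tested probe sets with 1 gene. Log2 signals were centred on their own mean over the 6 arrays, and the root-mean-square difference from the mean profile of AT1G61360, AT1G61370 and SD1-29 was taken. That mean profile stood at -0.39, -0.76 and -0.49 under water in IA, IB and II and at 0.82, 0.25 and 0.56 under Tween 20. The 3 kinases themselves lay 0.160, 0.157 and 0.139 from it, while the median candidate lay 0.647 from it.

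The nearest was AT4G01700, at 0.060. It had signals of 105.4, 74.6 and 102.0 units under water and of 228.9, 160.1 and 200.3 units under Tween 20, with log2 folds of 1.12, 1.10 and 0.97. It also shared the lower level in IB in both conditions. AT3G55470 followed at 0.077 (log2 folds 1.25, 0.93 and 0.84) and AT2G25735 at 0.126 (1.39, 1.01 and 0.84). AT1G29670 lay at 0.129 (1.03, 0.92 and 0.84), AT5G54860 at 0.142 (1.23, 0.55 and 0.86) and AT4G08850 at 0.194 (0.96, 1.35 and 0.63). AT4G01700, AT3G55470, AT2G25735 and AT1G29670 lay nearer to the mean profile than any of the 3 kinases did. As these genes were picked by a profile that holds the Tween comparison, their folds are a description.

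**Figure D4:**
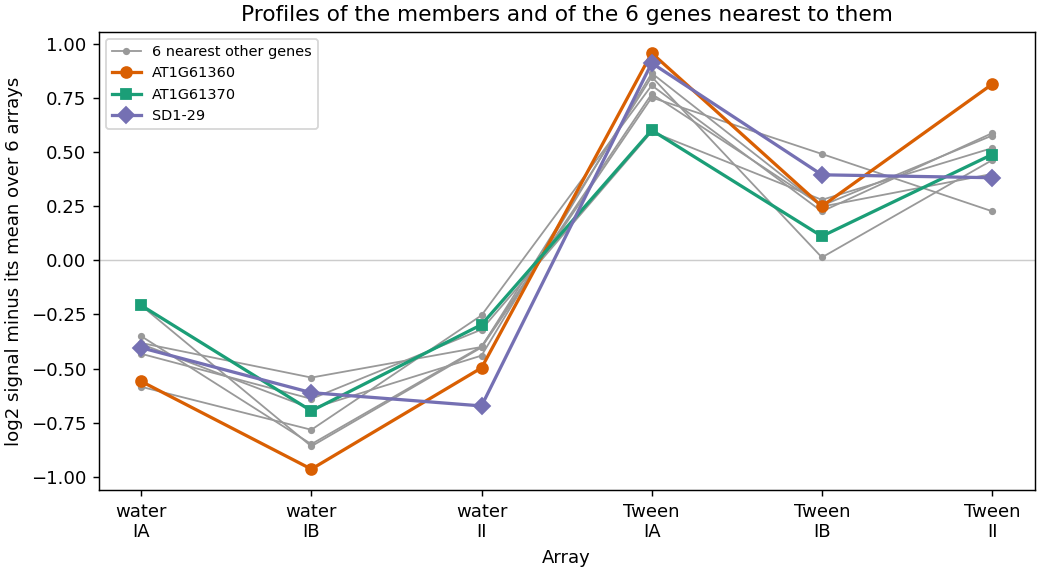
Log2 signal minus its own mean over the 6 arrays, by array, for AT1G61360, AT1G61370 and SD1-29 (coloured lines) and for the 6 other genes with the smallest root-mean-square difference from their mean profile (grey lines). All lines lie below 0 on the water arrays and above 0 on the Tween 20 arrays; SD1-29 is the coloured line that is lowest on the water array of II and does not rise from IB to II under Tween 20.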

How the data were processed

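Total leaf RNA was hybridised to 6 Affymetrix arrays. The authors deposited linear intensities, 1 signal per probe set. Per the submitters' processing notes MAS5 was used, with version and parameters not given in the sources used here. As a check, the mean of each array without the lowest and highest 2% of signals was 100.008 or 100.009, so the arrays appear scaled to 1 target, and a shift of most transcripts would not be seen. Of 22810 probe sets 64 controls were left out. The annotation gave 1 gene to 13513 probe sets, several to 503 and none to 8730, and 13436 matched RefSeq (TAIR10.1), from which no coordinates are given because the files name no build. No sequences are shown.

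Signals of 0 were set to 0.1 and log2 values were taken. limma 3.58.1 (R 4.3.3) fitted treatment with the experiment as a block and a variance trend, and p-values were adjusted by Benjamini-Hochberg over all tested probe sets (threshold 0.05). That fit left 2 residual degrees of freedom, to which the prior added 5.03. The titles pair the arrays, and deviations from the arm means correlated within experiments at 0.576, 0.714 and 0.711. Between experiments the correlations were below 0, which the centring on arm means forces in part. The code was tested on simulated data.

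The genes and 7 lists (163 entries, 3 left out as wrongly entered) were chosen with earlier results of these data known. Named are the 3 genes, genes of the stretch, family members or list members that passed or had the largest estimates (6 of the family, 2 of another list), and the 6 nearest profiles. The p-values rest on the spread of the Tween over water differences among IA, IB and II, with a prior drawn from all tested probe sets. The estimates average 1 h and 2.5 h, and a difference between these times adds to that spread. Each array holds pooled RNA, so the spread between extracts is not in the p-values.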

Additional observations from a re-analysis of the deposited data

Results flagged for a closer look

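Among the genes named that passed the filter on dim signals, 2 had log2 folds of 1 sign in both 1 h repetitions and of the other sign at 2.5 h. AT3G28690 was at 0.06 and 0.15 and then at -0.15. PYK10 was at -0.05 and -0.60 and then at 0.14. The difference between the times was not tested for either gene.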

How the results depend on the processing

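The Tween counts were 146 higher and 15 lower probe sets. They were 0 and 0 with no filter and 1 and 1 with no variance trend. With a term for time in place of the experiment block they were 0 and 0. Median centring gave 6 lower. Leaving out 1 experiment gave 0 to 574 higher and 0 to 156 lower, the highest values without IB and 0 without IA or II. Other S-domain kinases called were 1 higher (AT1G11330) with the 60th percentile filter and 0 to 2 higher and 0 to 1 lower with 1 experiment left out (B120 and AT1G11330, and AT1G11410, all without IB), in all other settings 0. The causes were not tested.

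Adding 16 units lowered the mean log2 folds of AT1G61360 to 1.13, of AT1G61370 to 0.56 and of SD1-29 to 0.98. Without 1 experiment they ranged from 1.26 to 1.41 for AT1G61360, 0.80 to 0.81 for AT1G61370 and 1.03 to 1.18 for SD1-29. All 3 genes kept Tween above water without overlap under each scaling tried. Before rescaling, 4.56% of all tested probe sets stood so. The 3 genes were chosen for standing above water, so nothing is read from this. Without 1 water array the time difference ranged from 0.06 to 0.47 for AT1G61360, -0.09 to 0.40 for AT1G61370 (the sign turned without IB) and -0.27 to -0.06 for SD1-29, values with no test. AT3G28690 ranged from -0.04 (without IB) to 0.11. The 2-fold counts in IA, IB, II and all pairs (587, 260, 165 and 29) were 378, 142, 65 and 12 with 16 units added and 1821, 1483, 1275 and 94 with no filter, and that of II was 89 with the 60th percentile filter.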
